A study of Arabidopsis thaliana with 15 samples.

Results

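Transcripts of 8 Arabidopsis clock genes were followed across the 15 plants of the series. The genes are the subunits of the evening complex, ELF3 (AT2G25930), ELF4 (AT2G40080) and LUX (AT3G46640), the LUX homologue BOA (AT5G59570), GI (AT1G22770), and the blue-light F-box proteins ZTL (AT5G57360), FKF1 (AT1G68050) and LKP2 (AT2G18915). They were taken by gene identifier, and all 8 were found among the 33977 genes counted in every plant. The plants form 5 groups of 3. Gen5 memory and Gen1 memory are transgene-null segregants of an MSH1-RNAi line of Arabidopsis thaliana Col-0 that keep an altered phenotype of slow growth, late flowering and pale leaves. MSH1 encodes an organelle-targeted DNA-binding protein, and the transgene that silenced it has been lost in these plants. Gen1 memory is the first generation after the loss, and Gen5 memory was derived from it by selfing. Gen1 nonmemory plants are full sibs of Gen1 memory, also transgene-null, with a normal phenotype. Gen5 WT and Gen1 WT are Col-0 plants from negative RNAi transformation events that were grown beside the memory plants of their generation. All memory and nonmemory plants go back to a single transformed parent, so that the memory groups stand for 1 line. Each library was made from 1 plant at bolting, and the sources name the material both as whole plants and as the rosette. Memory plants flower late, so at this stage they may differ in age from the controls, and the part of age was not tested. The hour of harvest was not found in the sources used here, and the transcripts of clock genes change through the day.

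The evening complex is a repressor of transcription that forms around dusk. ELF3 is its scaffold, ELF4 is a small protein that binds ELF3, and LUX is a MYB-type protein that brings the complex to DNA. BOA is the closest homologue of LUX and binds similar DNA. The complex represses PRR9 and PIF4 among other genes, and mutants that lack it are arrhythmic and flower early. GI is a large plant-specific protein that is expressed towards the end of the day, stabilises ZTL in blue light, and acts with FKF1 to remove the CDF repressors of flowering. ZTL directs the degradation of TOC1 and PRR5. LKP2 is the third protein of the ZTL family, with a light-sensing domain, an F-box and kelch repeats like the others.

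In both generations of memory plants, GI, FKF1 and ELF4 were higher and BOA was lower than in every nonmemory and WT plant. FKF1 was 5.07- to 6.16-fold higher, GI 2.85- to 3.22-fold higher and ELF4 1.92- to 2.65-fold higher in memory plants than in the 3 control groups, while BOA was 1.58- to 2.86-fold lower. ELF3, LUX, ZTL and LKP2 did not pass the test in any of the 3 memory comparisons. Within the complex the called gene was ELF4 and not its partner ELF3, of the LUX homologues it was BOA, and of the ZTL family it was FKF1.

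The DNA before the start of the gene is shown for BOA, FKF1 and GI, which changed, and for LUX, the homologue of BOA, because the evening element and the other clock-related motifs lie in such regions. Each stretch holds the 250 bases upstream of the start that RefSeq annotates on the assembly TAIR10.1, and reads 5′ to 3′ on the strand of the gene. Capitals mark an exact match on either strand to the evening element AAAATATCT, the CCA1-binding site AAAAATCT, the G-box CACGTG, or the LUX-binding site GATACG or GATTCG. The stretch of BOA is chr5:24003638-24003887 (plus strand), that of LUX chr3:17182792-17183041 (plus strand), that of FKF1 chr1:25508389-25508638 (plus strand) and that of GI chr1:8061501-8061750 (plus strand).
BOA: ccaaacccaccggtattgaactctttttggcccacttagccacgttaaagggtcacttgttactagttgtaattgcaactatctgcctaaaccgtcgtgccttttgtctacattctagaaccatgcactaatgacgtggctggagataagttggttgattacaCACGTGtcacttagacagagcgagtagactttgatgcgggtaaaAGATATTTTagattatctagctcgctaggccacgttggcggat
LUX: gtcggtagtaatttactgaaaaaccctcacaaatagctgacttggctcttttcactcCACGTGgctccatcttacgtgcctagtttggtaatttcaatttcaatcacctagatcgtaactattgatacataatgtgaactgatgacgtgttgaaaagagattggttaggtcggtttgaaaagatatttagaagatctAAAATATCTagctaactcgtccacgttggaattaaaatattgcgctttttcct
FKF1: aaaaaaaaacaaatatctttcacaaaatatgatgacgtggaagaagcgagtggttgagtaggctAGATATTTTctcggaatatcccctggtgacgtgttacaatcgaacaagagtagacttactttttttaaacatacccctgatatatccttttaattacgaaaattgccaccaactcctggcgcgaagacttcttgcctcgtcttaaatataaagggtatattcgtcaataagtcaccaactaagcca
GI: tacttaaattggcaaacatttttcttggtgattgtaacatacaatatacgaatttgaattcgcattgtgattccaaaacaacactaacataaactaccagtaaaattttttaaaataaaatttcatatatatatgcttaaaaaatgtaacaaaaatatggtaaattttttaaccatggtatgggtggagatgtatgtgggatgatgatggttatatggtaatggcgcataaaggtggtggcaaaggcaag
BOA and LUX each hold an evening element close to the start, 43 to 35 bases before it in BOA and 53 to 45 bases before it in LUX, and each holds a G-box farther upstream. FKF1 holds an evening element 186 to 178 bases before its start. The evening element was found in 2.36% of the 27443 promoters of the same length in the genome. The G-box was found in 6.49% of all promoters. The LUX-binding site was found in ELF3 and LKP2, against 12.1% of all promoters. The CCA1-binding site was found in LKP2, against 6.69% of all promoters. GI and ZTL held no match in this window. Genes with an evening element were thus among those that rose (FKF1), fell (BOA) and did not pass the test (LUX) in memory plants. A match of letters is a description and was not tested for binding.

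The counts came from 77169986 to 79202824 uniquely assigned reads or read pairs per plant, so that even BOA, the member with the fewest counts, had at least 343 counts in a plant. Levels are given as CPM, the raw count scaled to a library of 1000000 counts after adjustment by trimmed means of M-values (TMM). The scaling factors of the 6 memory plants, 0.8776 to 0.9552, lay below those of the other 9 plants, 1.017 to 1.077. MSH1 itself (AT3G24320) ranged from 8.14 to 11.7 CPM in Gen5 memory, 11.0 to 11.4 in Gen1 memory, 9.72 to 10.4 in Gen1 nonmemory, 8.28 to 9.63 in Gen5 WT and 9.95 to 10.4 in Gen1 WT, and was not called in any of the 7 pairwise comparisons. Leaf mesophyll markers (5 of 5 detected, RBCS and LHC genes) summed to 47430 to 59927 CPM in Gen5 memory and 48338 to 50593 CPM in Gen1 memory, against 28786 to 31661 CPM in Gen1 nonmemory, 26940 to 31731 CPM in Gen5 WT and 25496 to 28240 CPM in Gen1 WT. They were called higher in 3 of 5 cases against Gen1 nonmemory, in 3 of 5 against Gen1 WT and in 4 of 5 against Gen5 WT, and 1 was lower against Gen1 WT. The markers did not move alike. In Gen1 memory and Gen1 WT, LHCB2.1 averaged 2404 and 122 CPM, LHCA1 5985 and 1558 CPM, and LHCB1.3 25070 and 9590 CPM. In the same groups RBCS1A averaged 14880 and 14034 CPM, and RBCS2B 1054 and 1607 CPM. In Gen5 all of these markers had higher means in memory than in WT. The 7 flower markers were scarce and summed on average to 1.12 CPM in Gen5 memory and 1.01 CPM in Gen1 memory, against 1.17 CPM in Gen1 nonmemory, 1.49 CPM in Gen5 WT and 1.59 CPM in Gen1 WT, with the sums of each memory group below those of the WT of its generation (at most 1.69 CPM in any plant). Of the 3 that were tested against Gen1 WT, 1 was called higher and 2 lower in Gen1 memory, and none was called in the other memory comparisons. Of 6 root markers, RHD6 and MYB36 were at 0 in every plant, and the 6 together reached at most 1.29 CPM. The part of tissue composition in the results below was not tested, and in such bulk samples more cells of a type cannot be told apart from more RNA per cell.

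**Figure D1:**
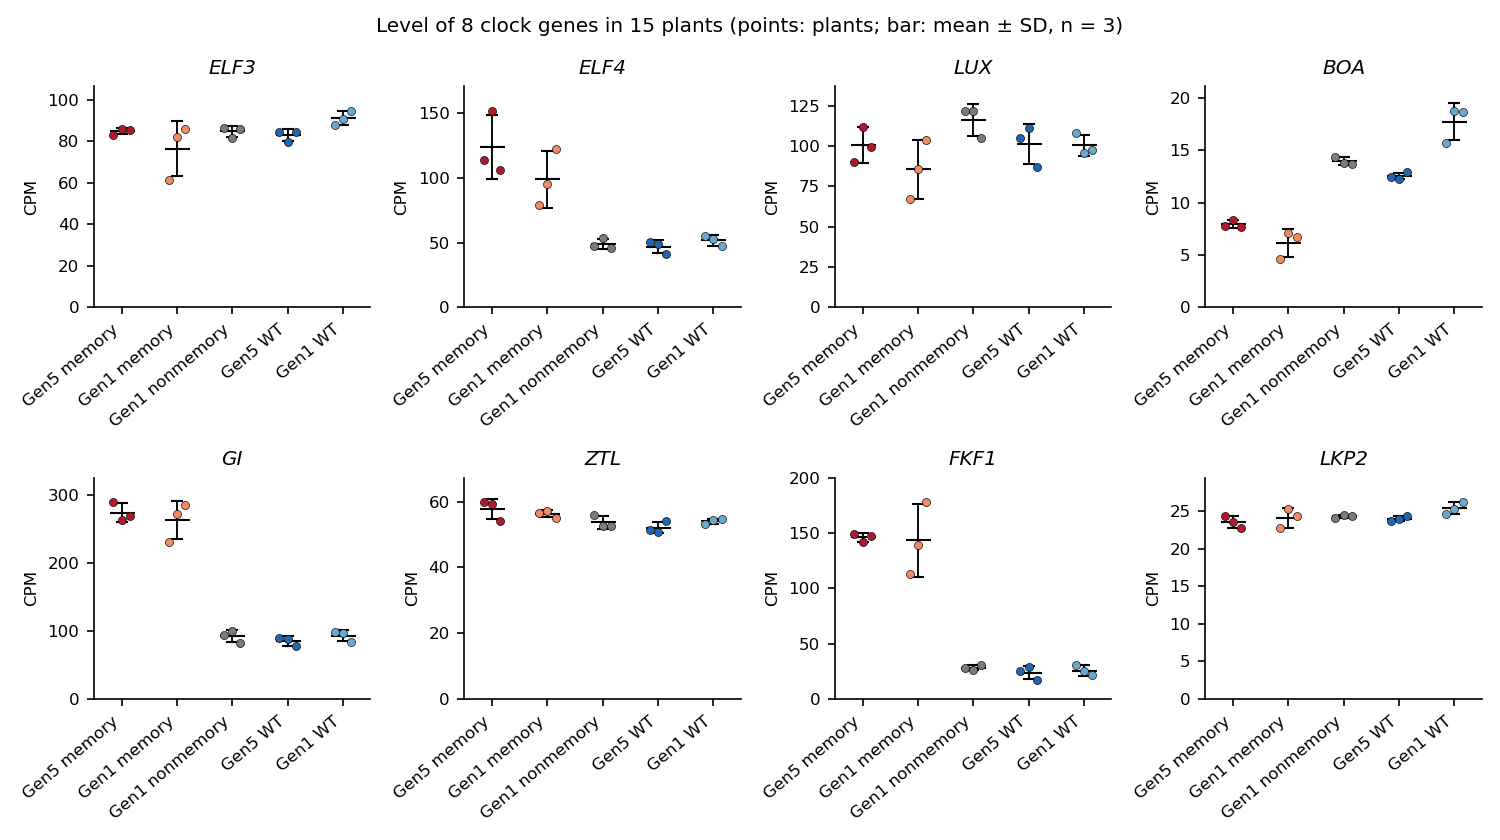
Level of the 8 genes in CPM (vertical axes, from 0) in each of the 15 plants by group, with the mean and SD of 3 plants. The 6 memory plants lie above all 9 others for ELF4, GI and FKF1 and below all 9 others for BOA, and overlap them for ELF3, LUX, ZTL and LKP2.

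To find which members differ between memory and the controls, each memory group was tested against its controls with edgeR's quasi-likelihood test over all genes, and a gene was called when its Benjamini-Hochberg adjusted p was under 0.05 and its log2 fold change beyond 0.5 in either direction. Gen1 memory against Gen1 nonmemory called 4 of the 8 members, 3 higher and 1 lower, where 23.4% of the 19760 genes tested were called (11.1% higher and 12.2% lower). Gen1 memory against Gen1 WT also called 4 of 8, 3 higher and 1 lower, where 20.0% of 19849 genes were called (9.52% higher and 10.5% lower). Gen5 memory against Gen5 WT called 4 of 8, 3 higher and 1 lower, where 27.0% of 19800 genes were called (13.3% higher and 13.7% lower). The called genes were ELF4, GI, FKF1 and BOA each time. The 2 Gen1 comparisons share the Gen1 memory plants and are not independent of each other. Over the 8 genes the median log2 fold change was 0.03, 0.00 and 0.09 in these 3 comparisons, where that of all genes was 0.01, -0.01 and 0.01. Groups did not overlap for 5, 6 and 5 of the 8 members in the 3 comparisons, and they did not overlap for 53.1, 49.7 and 55.7% of all genes tested. The 6 memory plants did not overlap the 9 others for 4 of the 8 members, and for 26.2% of the 19547 genes tested in all 3 comparisons.

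**Figure D2:**
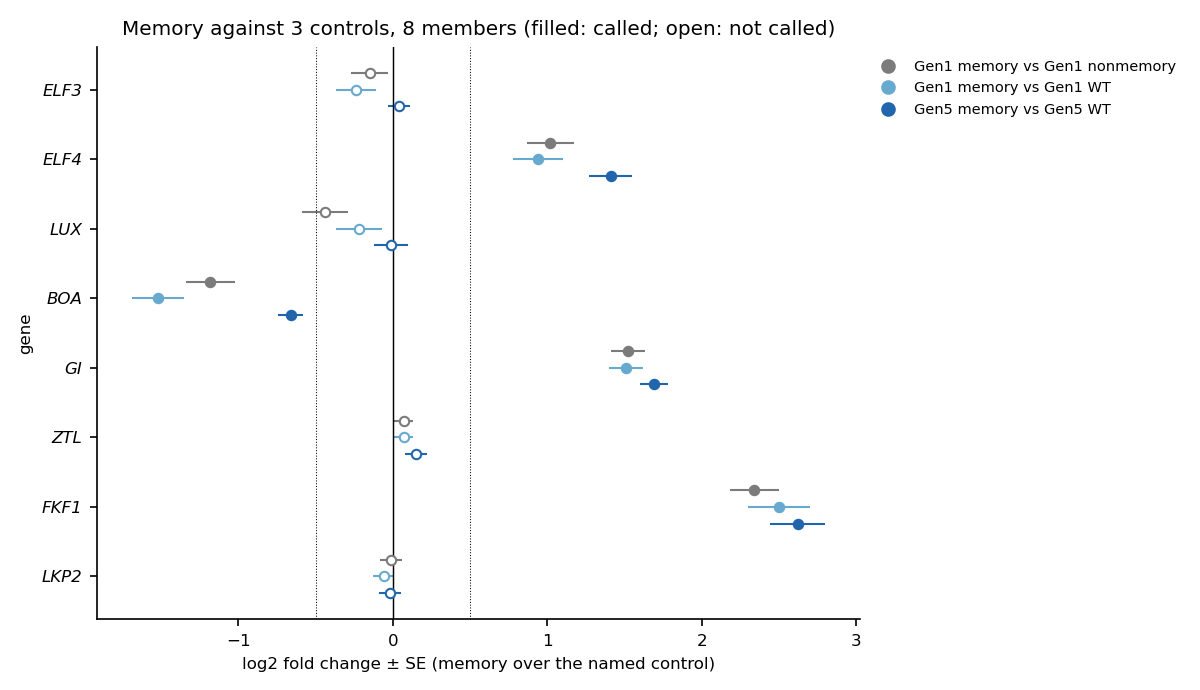
Log2 fold change with its standard error (horizontal axis) of the 8 genes in memory compared with Gen1 nonmemory (grey), with Gen1 WT (light blue) and with Gen5 WT (dark blue). Filled points were called, dotted lines mark 0.5 and -0.5, and FKF1, GI and ELF4 lie to the right in all 3 comparisons and BOA to the left.

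ELF4, the small partner of ELF3, is encoded by a short gene at chr2:16734294-16734953 on the minus strand. ELF4 had 114, 152 and 106 CPM in Gen5 memory and 79.0, 95.4 and 122 CPM in Gen1 memory. It had 47.7, 53.6 and 45.7 CPM in Gen1 nonmemory, 50.6, 48.7 and 41.1 CPM in Gen5 WT, and 55.4, 52.9 and 47.3 CPM in Gen1 WT. The lowest memory plant stood above the highest of the 9 other plants, and the memory plants differed more among themselves, with a coefficient of variation of 19.7% in Gen5 memory and 21.9% in Gen1 memory against 8.41%, 10.7% and 7.95% in Gen1 nonmemory, Gen5 WT and Gen1 WT. The log2 fold change was 1.02 (SE 0.15, adjusted p = 0.00204, edgeR) against Gen1 nonmemory. It was 0.94 (SE 0.16, adjusted p = 0.00383) against Gen1 WT and 1.41 (SE 0.14, adjusted p = 0.000213) between Gen5 memory and Gen5 WT. All 6 fits of each comparison that left out 1 plant kept the call. The 3 control groups overlapped one another, and so did the 2 memory groups.

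ELF3, the scaffold of the complex (chr2:11058944-11063324, plus strand), had 83.2, 86.0 and 85.5 CPM in Gen5 memory and 61.2, 82.3 and 85.7 CPM in Gen1 memory. It had 86.6, 81.8 and 85.9 CPM in Gen1 nonmemory, 84.7, 79.8 and 84.6 CPM in Gen5 WT, and 88.1, 90.9 and 94.8 CPM in Gen1 WT. All plants but 1 lay between 79.8 and 94.8 CPM, and Gen1 memory plant 1 stood below them. The log2 fold change was -0.15 (adjusted p = 0.388) against Gen1 nonmemory, -0.24 (adjusted p = 0.182) against Gen1 WT and 0.04 (adjusted p = 0.703) between Gen5 memory and Gen5 WT. Gen1 WT did not overlap the next group in the order of means, and the other 4 groups overlapped their neighbours.

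LUX, the DNA-binding subunit (chr3:17183042-17186959, plus strand), had 90.0, 112 and 99.5 CPM in Gen5 memory and 67.3, 85.7 and 104 CPM in Gen1 memory. It had 122, 122 and 105 CPM in Gen1 nonmemory, 105, 111 and 87.3 CPM in Gen5 WT, and 108, 95.9 and 97.5 CPM in Gen1 WT. Gen1 memory and Gen1 nonmemory did not overlap, with 104 CPM in the highest plant of Gen1 memory and 105 CPM in the lowest nonmemory plant. The log2 fold change there was -0.44 (SE 0.15, adjusted p = 0.056), which misses the threshold on both counts. It was -0.60 (adjusted p = 0.00847) without Gen1 memory plant 3 and -0.59 (adjusted p = 0.0156) when scaled by library size alone, a scaling added after the data were seen. Against Gen1 WT the log2 fold change was -0.22 (adjusted p = 0.309), and between Gen5 memory and Gen5 WT it was -0.01 (SE 0.11, adjusted p = 0.974).

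BOA, the homologue of LUX (chr5:24003888-24007844, plus strand), had the fewest counts of the 8 and fell in memory plants. BOA had 7.81, 8.38 and 7.69 CPM in Gen5 memory and 4.58, 7.15 and 6.72 CPM in Gen1 memory. It had 14.4, 13.8 and 13.7 CPM in Gen1 nonmemory, 12.5, 12.3 and 12.9 CPM in Gen5 WT, and 15.7, 18.8 and 18.7 CPM in Gen1 WT. No group overlapped its neighbour in the order of means, which ran from Gen1 WT at the top through Gen1 nonmemory, Gen5 WT and Gen5 memory to Gen1 memory. Its log2 fold change was -1.18 (SE 0.16, adjusted p = 0.00133) against Gen1 nonmemory. It was -1.52 (SE 0.17, adjusted p = 0.00086) against Gen1 WT and -0.66 (SE 0.08, adjusted p = 0.000597) between Gen5 memory and Gen5 WT. Every fit that left out 1 plant kept these 3 calls.

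BOA was also the only member whose controls differed at an adjusted p under 0.05. Its log2 fold change was -0.35 (SE 0.08, adjusted p = 0.0254) in Gen1 nonmemory against Gen1 WT, and -0.50 (SE 0.08, adjusted p = 0.00454) in Gen5 WT against Gen1 WT. Both were within the fold threshold, the second narrowly at -0.499. It passed without Gen5 WT plant 3 (-0.52) and without Gen1 WT plant 1 (-0.58), and also when scaled by library size alone (-0.54). The difference between the memory effects of the 2 generations was tested in the 12 memory and WT plants, where an adjusted p under 0.05 alone makes the call. It was 0.85 for BOA (SE 0.20, adjusted p = 0.0255), so that BOA was reduced less in Gen5 than in Gen1 relative to the WT of the same generation. BOA was the 1 member of 8 called, where 6.03% of the 20195 genes tested were. The call was lost without Gen5 WT plant 1 (adjusted p = 0.0636), 2 (0.0702) or 3 (0.0519) and without Gen1 WT plant 2 (0.0691) or 3 (0.0554), while the size stayed between 0.69 and 0.98 over the 12 fits that left out 1 plant. The means of both kinds of plants moved. Gen5 memory had a higher mean than Gen1 memory (0.37, SE 0.18, adjusted p = 1, with no overlap of their plants), a difference that was not called. Gen5 WT had a lower mean than Gen1 WT (-0.50, adjusted p = 0.00454, as above), and only this side had an adjusted p under 0.05.

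The 3′ parts of the annotated BOA and LUX genes overlap other genes on the opposite strand, UGT76E1 (AT5G59580) over 1896 bases of BOA and AT3G46650 over 1507 bases of LUX. The libraries do not mark strand, and reads in such overlaps cannot be told apart. UGT76E1 had 42 to 59 counts in Gen5 memory, 73 to 115 in Gen1 memory, 27 to 45 in Gen1 nonmemory, 20 to 56 in Gen5 WT and 41 to 46 in Gen1 WT, where BOA had 343 to 580 counts in memory plants and 994 to 1566 in the others. AT3G46650 had 87 to 207 counts over all plants. FKF1 overlaps MAP70-1 by 21 bases only, which had 2613 to 3404 counts in memory plants and 3445 to 4195 in the others. LKP2 shares 370 bases with AT2G18917, which had at most 6 counts, and ELF3 shares short stretches with AT2G08135, at 0, and ALPHA-VPE, at most 45 counts. The part of these overlaps in the results was not tested.

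GI, the partner of ZTL and FKF1 (chr1:8061751-8067790, plus strand), rose in memory plants of both generations. GI had 289, 262 and 269 CPM in Gen5 memory and 231, 271 and 285 CPM in Gen1 memory. It had 94.0, 99.4 and 82.3 CPM in Gen1 nonmemory, 89.6, 88.1 and 77.4 CPM in Gen5 WT, and 98.3, 96.3 and 83.7 CPM in Gen1 WT. The lowest of the 6 memory plants had 231 CPM and the highest of the 9 others 99.4 CPM. GI had a log2 fold change of 1.52 (SE 0.11, adjusted p = 0.0001) against Gen1 nonmemory. It was 1.51 (SE 0.11, adjusted p = 0.000129) against Gen1 WT and 1.69 (SE 0.09, adjusted p = 1e-05) between Gen5 memory and Gen5 WT. The effects of the 2 generations differed by 0.17 (SE 0.14, adjusted p = 0.556).

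FKF1, which with GI removes CDF proteins in blue light (chr1:25508639-25510907, plus strand), had the largest fold change of the 8 in each memory comparison. FKF1 had 149.6, 142 and 147 CPM in Gen5 memory and 113, 139 and 178 CPM in Gen1 memory. It had 27.8, 26.2 and 31.0 CPM in Gen1 nonmemory, 25.4, 29.0 and 17.0 CPM in Gen5 WT, and 30.6, 24.8 and 21.5 CPM in Gen1 WT. The 2 memory groups had nearly the same mean, 146 ± 4.14 CPM in Gen5 memory and 143 ± 32.3 CPM in Gen1 memory (SD, n = 3 each), with a wider spread in Gen1. FKF1 had a log2 fold change of 2.34 (SE 0.16, adjusted p = 9.04e-05) against Gen1 nonmemory. It was 2.50 (SE 0.20, adjusted p = 0.000184) against Gen1 WT and 2.62 (SE 0.18, adjusted p = 3.14e-05) between Gen5 memory and Gen5 WT. The effects of the 2 generations differed by 0.12 (SE 0.28, adjusted p = 0.864).

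ZTL (chr5:23241320-23244590, plus strand), the family member that degrades TOC1, had 59.9, 59.3 and 54.2 CPM in Gen5 memory and 56.7, 57.2 and 55.2 CPM in Gen1 memory. It had 56.0, 52.6 and 52.6 CPM in Gen1 nonmemory, 51.5, 50.7 and 54.0 CPM in Gen5 WT, and 53.3, 54.3 and 54.8 CPM in Gen1 WT. The plants of each memory group lay narrowly above those of the WT of the same generation. The log2 fold change was 0.07 (SE 0.06, adjusted p = 0.363) against Gen1 nonmemory, 0.07 (SE 0.06, adjusted p = 0.38) against Gen1 WT and 0.15 (SE 0.07, adjusted p = 0.128) between Gen5 memory and Gen5 WT. The sign turned under library size alone, to -0.08, -0.11 and -0.02, because that scaling lowers the median of all genes by 0.15 to 0.19 in these comparisons. LKP2 (chr2:8194512-8197483, minus strand) stayed between 22.7 and 26.2 CPM in all 15 plants. Its log2 fold change was -0.01 (SE 0.07, adjusted p = 0.939) against Gen1 nonmemory, -0.06 (SE 0.07, adjusted p = 0.547) against Gen1 WT and -0.02 (SE 0.07, adjusted p = 0.836) between Gen5 memory and Gen5 WT.

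The related genes are alike in sequence, so it was checked whether their reads can be told apart. The coding sequences of LUX and BOA were identical at 75.8% of aligned bases, those of ZTL and LKP2 at 73.7%, ZTL and FKF1 at 68.6%, and LKP2 and FKF1 at 68.2%. No exon stretch of 150 bases, the read length, of any of the 8 genes occurred a second time in the genome, so that whole reads place these genes uniquely. Per kilobase of exon, ELF4 had the highest mean level of the 8 in every group, 200.3 and 159.7 CPM per kb in Gen5 and Gen1 memory against 79.2, 75.6 and 83.8 CPM per kb in Gen1 nonmemory, Gen5 WT and Gen1 WT. The lengths of LUX and BOA include the overlaps above, which makes their values per kb uncertain.

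Within a plant, the ratio of counts per kb shows the same unequal change without library scaling. FKF1 over ZTL was 2.85 ± 0.189 in Gen5 memory and 2.87 ± 0.693 in Gen1 memory, against 0.594 ± 0.0596 in Gen1 nonmemory, 0.518 ± 0.149 in Gen5 WT and 0.534 ± 0.103 in Gen1 WT (SD, n = 3 each). FKF1 was thus the lower of the 2 genes per kb in the controls and the higher in memory plants. ELF4 over ELF3 was 6.48 ± 1.21 in Gen5 memory and 5.74 ± 0.585 in Gen1 memory, against 2.57 ± 0.297 in Gen1 nonmemory, 2.51 ± 0.304 in Gen5 WT and 2.53 ± 0.290 in Gen1 WT. BOA over LUX was 0.0853 ± 0.00671 in Gen5 memory and 0.0771 ± 0.0107 in Gen1 memory, against 0.129 ± 0.00936 in Gen1 nonmemory, 0.135 ± 0.0208 in Gen5 WT and 0.191 ± 0.0302 in Gen1 WT. No memory plant overlapped a control plant in any of these 3 ratios, which were formed from genes whose differences were already known and carry no test. FKF1 over GI, 2 genes that both rose, was 1.06 in Gen5 memory and 1.08 in Gen1 memory, against 0.619, 0.550 and 0.546 in Gen1 nonmemory, Gen5 WT and Gen1 WT.

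**Figure D3:**
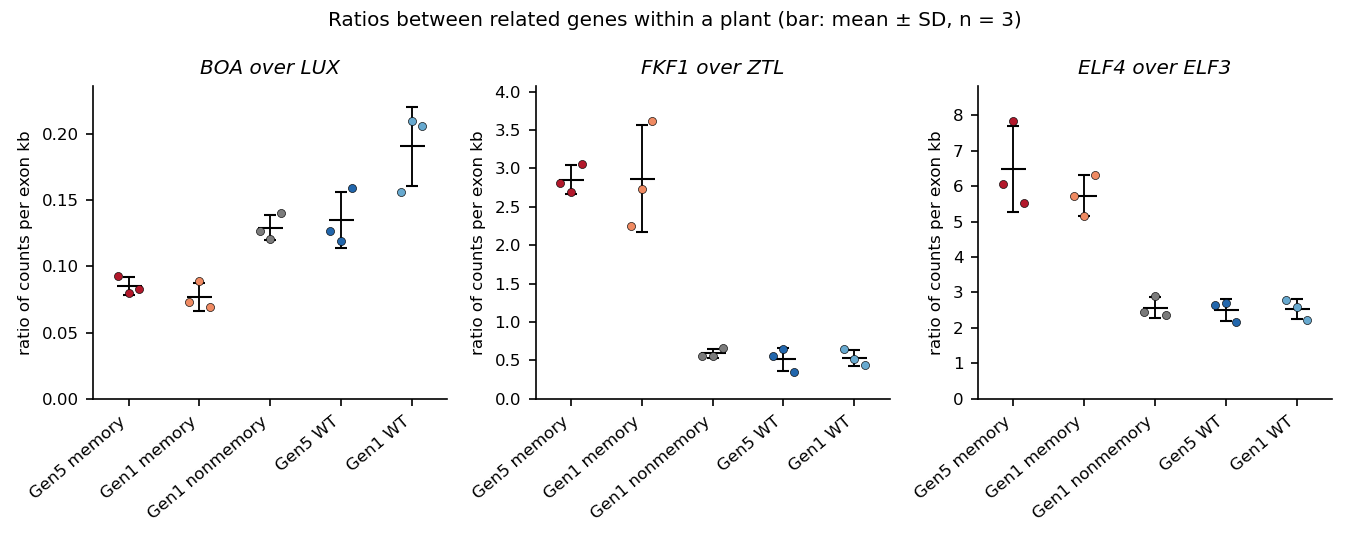
Ratio of counts per exon kilobase (vertical axes, from 0) of BOA over LUX, FKF1 over ZTL and ELF4 over ELF3 in each plant by group, with the mean and SD of 3 plants. The memory plants lie below all controls for BOA over LUX and above all controls for the other ratios.

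Among the controls BOA differed at an adjusted p under 0.05, as described above, within the fold threshold. No member was called in Gen1 nonmemory against Gen1 WT, where 7.71% of all genes were, or in Gen5 WT against Gen1 WT, where 10.7% were, or in Gen1 nonmemory against Gen5 WT, where 1.70% were. Groups did not overlap for 3, 3 and 1 members in these comparisons, and for 39.8, 43.7 and 25.9% of all genes tested. In Gen1 nonmemory against Gen1 WT, FKF1 differed by 0.14 (SE 0.13, adjusted p = 0.458), ELF4 by -0.08 (SE 0.08, adjusted p = 0.523) and GI by -0.01 (SE 0.09, adjusted p = 0.934). The 3 genes that were higher in memory thus stood at like levels in the nonmemory sibs and in WT, within these standard errors, which do not show equality.

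Between Gen5 memory and Gen1 memory no member was called. Here edgeR called 0 of 19716 genes (0% of genes tested), with 353 genes and none of the members at an unadjusted p under 0.05, and DESeq2 called 6 genes and none of the members. The member with the largest difference besides BOA was ELF4, 0.32 higher in Gen5 memory (SE 0.19, adjusted p = 1). The Gen1 memory plants varied more than the Gen5 memory plants for most members: plant 1 was the lowest of its group for 7 of the 8 genes, all but ZTL, and the coefficient of variation in Gen1 memory was 17.4% for ELF3, 21.3% for LUX, 22.4% for BOA and 22.5% for FKF1, where that of Gen5 memory was 1.72%, 10.9%, 4.66% and 2.83%. For GI it was 10.7% in Gen1 and 5.04% in Gen5 memory, and for LKP2 5.45% and 3.32%. ELF4 was nearly alike, with 21.9% and 19.7%, and ZTL went the other way, with 1.79% and 5.41%. The shares of all genes that behave in these ways were not determined, and genes measured in the same plants are not separate observations. Over all genes with enough counts, the chi-square per degree of freedom between plants was 72.1, 133 and 73.3 for the pairs of Gen1 memory. It was 98.6, 34.8 and 119 for those of Gen5 memory, so the wider spread in Gen1 is described for these members only. ELF4, GI, FKF1 and BOA were called in the Gen1 comparisons also without Gen1 memory plant 1.

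The other genes of the pathway were taken from a list of 24 clock and photoperiod genes, all of which were tested. The list was chosen with earlier results of these data known. Its share of called genes and its median are thus a description, and whether they exceed those of all genes was not tested. Memory called 13 of them against Gen1 nonmemory (11 higher and 2 lower), 13 against Gen1 WT (10 higher and 3 lower) and 13 in Gen5 (11 higher and 2 lower), where 23.4, 20.0 and 27.0% of all genes were called. Their median log2 fold change was 0.54, 0.59 and 0.48 in these comparisons, where that of all genes was 0.01, -0.01 and 0.01. Of the pseudo-response regulators, which repress the morning genes, 4 of 5 were higher in each comparison, and the transcript of TOC1, whose protein is a target of ZTL, was not called. PRR9, which the evening complex represses, had the largest fold change of the list. PRR9 averaged 10.9 CPM in Gen5 memory and 16.0 CPM in Gen1 memory, against 0.499 CPM in Gen1 nonmemory, 0.661 CPM in Gen5 WT and 0.367 CPM in Gen1 WT. Its log2 fold change was 5.01 against Gen1 nonmemory (adjusted p = 9.31e-05), 5.46 against Gen1 WT (adjusted p = 0.000109) and 4.05 in Gen5 (adjusted p = 0.000181).

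PIF4, a growth-promoting bHLH factor also bound by the evening complex, was 0.79, 1.39 and 0.96 higher on the log2 scale in the 3 memory comparisons in the order used above (adjusted p = 0.00255, 0.000435 and 0.00107), while its relative PIF5 was not called. The coactivators LNK1 and LNK2 were higher in each comparison, LNK2 by 1.86, 2.76 and 1.53 (adjusted p = 0.000111, 5.84e-05 and 1.75e-05). Of 5 morning factors, 2, 1 and 2 were called, all higher and in the second case 1 of 5 where 20.0% of all genes were called, with CCA1 among them each time at 1.96, 3.16 and 1.10 (adjusted p = 0.00581, 0.00128 and 0.000433). AT5G52660 was called in Gen5 (0.73, adjusted p = 0.000855). In the Gen1 comparisons it was within the fold threshold, at 0.49 against nonmemory and 0.48 against WT (adjusted p = 0.00258 and 0.00294). LHY was called against Gen1 nonmemory only (1.04, adjusted p = 0.0482), and not without Gen1 memory plant 1 (0.59, adjusted p = 0.119) or without any 1 of the nonmemory plants (adjusted p = 0.0677 to 0.138). None of the 4 ELF4-like genes was called, EFL1 having the largest value at 0.53 against Gen1 nonmemory (adjusted p = 0.108), so that within the ELF4 family ELF4 was the 1 gene called. EFL4 missed only the fold threshold against Gen1 WT (0.42, adjusted p = 0.0291). All 4 had small positive values in each memory comparison.

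Of 6 genes downstream of FKF1 and GI, 4, 5 and 4 were called, in both directions. FKF1 and GI act on CDF proteins, while the values here are of transcripts. CDF1 and CDF3 were higher and CDF2 lower in each comparison, where CDF proteins repress CO and FT. CDF1 was 0.54 against Gen1 nonmemory, near the threshold, and was within it without Gen1 memory plant 3 (0.50) or Gen1 nonmemory plant 3 (0.46). CDF3 rose most, averaging 78.6 CPM in Gen5 memory and 75.2 CPM in Gen1 memory, against 8.92 CPM in Gen1 nonmemory, 6.05 CPM in Gen5 WT and 9.88 CPM in Gen1 WT. Its log2 fold change was 3.08, 2.94 and 3.70 (adjusted p = 4.78e-06, 2.68e-05 and 9.85e-07). FT, the mobile signal for flowering, averaged 0.388 CPM in Gen5 memory and 0.395 CPM in Gen1 memory, against 3.69 CPM in Gen1 nonmemory, 3.02 CPM in Gen5 WT and 5.77 CPM in Gen1 WT. FT was -3.21, -3.85 and -2.95 on the log2 scale (adjusted p = 0.000153, 0.000109 and 0.00011). CO, which activates FT, stood apart in Gen1 WT and not in memory. It averaged 3.85 CPM in Gen5 memory and 3.84 CPM in Gen1 memory, against 3.98 CPM in Gen1 nonmemory, 3.29 CPM in Gen5 WT and 7.25 CPM in Gen1 WT. Relative to Gen1 WT it was lower in Gen1 memory (-0.90, adjusted p = 0.0166, and 0.0559 without Gen1 WT plant 3), and it was also lower in Gen1 nonmemory (-0.87, adjusted p = 0.00682) and in Gen5 WT (-1.14, adjusted p = 0.000909).

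Other genes of the list also differed between the controls, where 6 of 24 were called in Gen1 nonmemory against Gen1 WT and 5 of 24 in Gen5 WT against Gen1 WT (7.71 and 10.7% of all genes). CCA1 was higher than in Gen1 WT in both Gen1 nonmemory (1.19, adjusted p = 0.00557) and Gen5 WT (1.59, adjusted p = 0.000559), and so was LNK2 (0.89, adjusted p = 0.00135, and 1.14, adjusted p = 0.000229). FT was lower by the same comparisons (-0.64, adjusted p = 0.0213, and -0.93, adjusted p = 0.00747), the first of which was lost without Gen1 WT plant 2 or without Gen1 nonmemory plant 1 or 3 (adjusted p = 0.0595 to 0.071). CDF1 was higher in Gen1 nonmemory than in Gen1 WT (0.86, adjusted p = 0.00597). PIF4 was too (0.60, adjusted p = 0.0192), but not without Gen1 WT plant 1 or 2 or Gen1 nonmemory plant 1 or 2. CDF3 was lower in Gen5 WT than in Gen1 WT (-0.71, adjusted p = 0.00762). In Gen1 nonmemory against Gen5 WT, 1 of 24 was called (1.70% of all genes), CDF3 at 0.56 (adjusted p = 0.0157). That call was lost without Gen1 nonmemory plant 1 or Gen5 WT plant 1 or 2. The differences of Gen1 memory from Gen1 WT in CCA1, LNK2, CDF1, PIF4 and FT thus stand beside differences of the same sign between the controls.

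**Figure D4:**
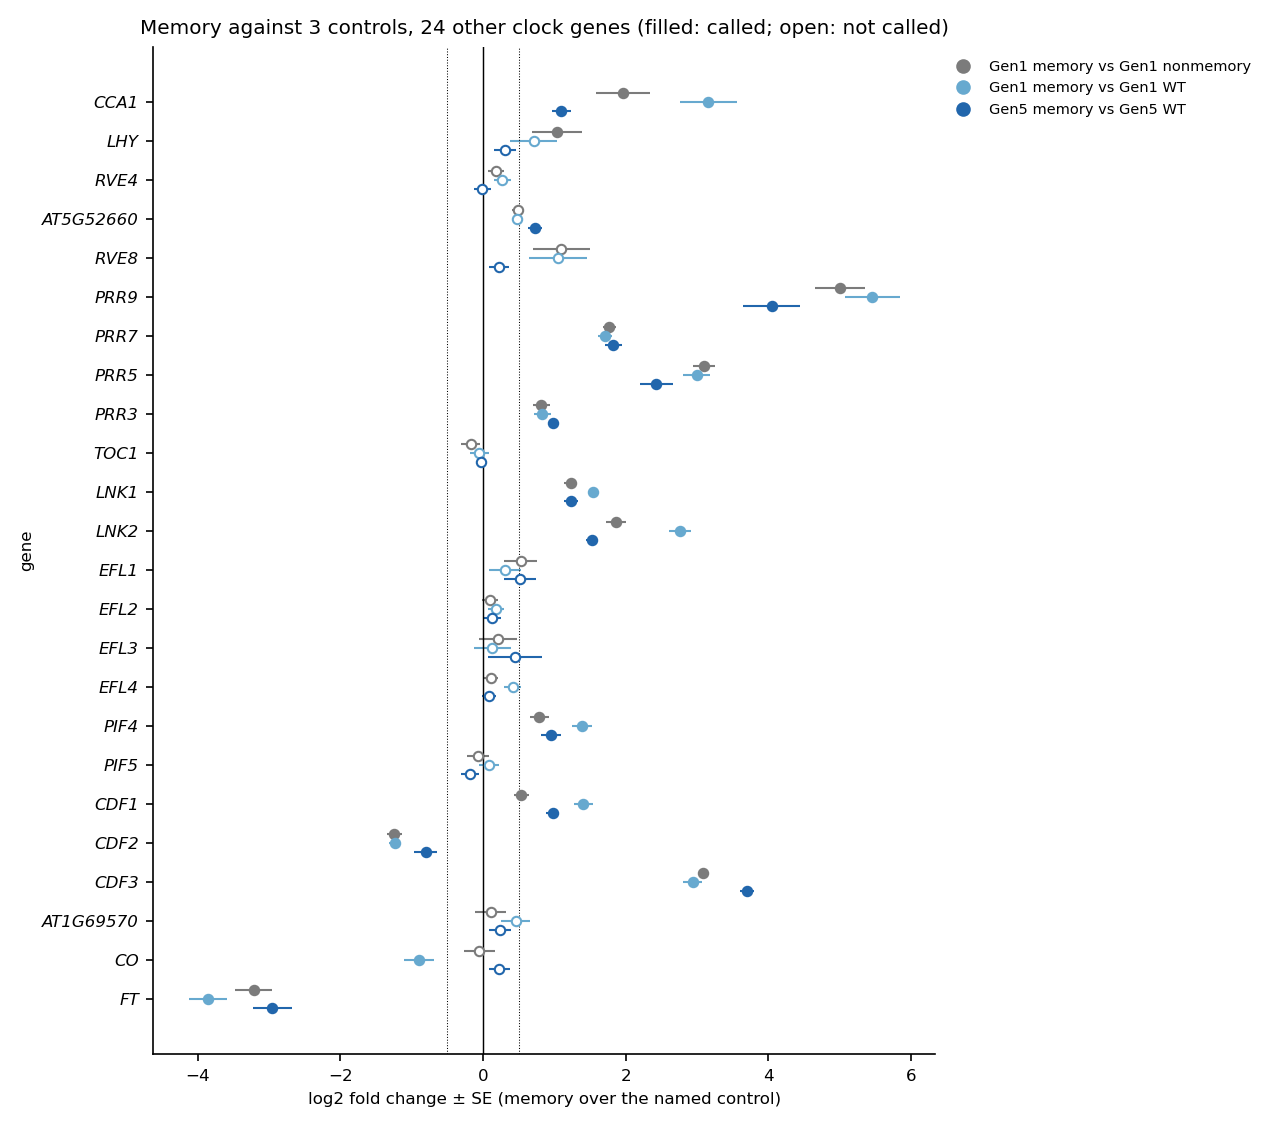
Log2 fold change with its standard error (horizontal axis) of 24 other clock and photoperiod genes in memory compared with Gen1 nonmemory (grey), with Gen1 WT (light blue) and with Gen5 WT (dark blue). Filled points were called and dotted lines mark 0.5 and -0.5. PRR9 lies farthest to the right and FT farthest to the left in each comparison.

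The genes whose pattern over the 15 plants was most like that of a called member were found among 16998 genes as those with the smallest root mean square difference of centred log2 levels. For GI these were AT4G21215 (0.10), GLR3.5 (0.13) and ERD3 (0.15), where GI itself varied by 0.78 about its mean. For ELF4 they were AT5G40500 (0.14), NF-YA6 (0.15) and AT1G78995 (0.17), where ELF4 varied by 0.60. For BOA they were BBX14 (0.14), LEJ2 (0.17) and AGL24 (0.17), where BOA varied by 0.58. For FKF1 they were AIF1 (0.23), PAO2 (0.28) and AT1G70420 (0.30), where FKF1 varied by 1.24. The likeness is over plants of both generations, which share the memory difference itself, and is a description without a test.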

How the data were processed

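RNA was sequenced from 15 plants, 3 in each of 5 groups, with 150-bp reads from TruSeq RNA v2 libraries. The authors aligned reads with STAR 2.7.0a, kept unique alignments and counted them per gene with QoRTs, and the deposited values are raw counts, 1 file per plant. The setting of strand in the counting, and how reads over 2 genes were resolved, were not given in the sources used here. Rows that name no gene (0.88 to 1.08% of counts) were left out, and the 285 organelle genes had 0 counts. Totals were 77169986 to 79202824 counts per plant, so that counting error is small beside the spread between plants. Plants of a group differed by more than sampling noise in all 15 within-group pairs (chi-square per degree of freedom 13.7 to 133).

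Counts were fitted per comparison with edgeR 4.0.16 (R 4.3.3), TMM scaling, filterByExpr and the quasi-likelihood test, with only the groups compared in a fit and p-values adjusted over all genes tested (Benjamini-Hochberg). A gene was called at an adjusted p under 0.05 and a log2 fold change beyond 0.5 in either direction, after the study's rule. Standard errors came from the fold change and its F statistic. The fitting code was tested on simulated data. Exact permutation of 3 plants against 3 cannot give p below 0.1 (two-sided), so single-gene permutation tests were not used. Alternatives were RLE scaling, DESeq2 1.42.0, no filter, all plants in one fit, a replicate block, a fold threshold of 1 and leaving out each plant. Library size alone was added after seeing the data.

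Gene identifiers were matched to RefSeq's annotation of TAIR10.1 (32548 of 33977), from which coordinates, exon lengths and upstream sequences were taken. The upstream stretch of ELF4 is not reported here. All 8 members are named in every comparison. Clock-list genes are named by group, with values for those of the largest fold change in a group and for others singled out after their values were seen, and for each called member the 3 genes with the most similar pattern are named (mean normalized count of at least 100). The members, the clock list and the tests were chosen with earlier results of these data known. The p-values set a difference between groups against the spread between the individual plants of a group, and the plants of the memory line share 1 ancestry.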

Additional observations from a re-analysis of the deposited data

Results flagged for a closer look

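The memory effect on BOA, Gen5 memory over Gen5 WT minus Gen1 memory over Gen1 WT, was 0.85 on the log2 scale (SE 0.20, adjusted p = 0.0255, edgeR's quasi-likelihood test of the interaction), so that the reduction of BOA relative to the WT of its generation differed between the generations. BOA averaged 7.96 CPM in Gen5 memory and 12.6 CPM in Gen5 WT, and 6.15 CPM in Gen1 memory and 17.8 CPM in Gen1 WT, and its log2 fold change was -0.66 in Gen5 and -1.52 in Gen1. Gen1 WT also stood above the Gen1 nonmemory sibs, which averaged 14.0 CPM. Against those sibs the log2 fold change of Gen1 memory was -1.18. The adjusted p was above 0.05, between 0.0519 and 0.0702, in 5 of the 12 fits that left out 1 plant, each a WT plant. The cause was not tested.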

How the results depend on the processing

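Of 872 values of a member under an alternative, 831 kept their direction and their side of the threshold, 5 passed the threshold only there, 7 no longer passed it, and 29 changed sign, none of them a called value. ELF4, GI, FKF1 and BOA were called in all 3 memory comparisons under RLE scaling, DESeq2, no filter, all plants in one fit, library size alone and every left-out plant. With a threshold of 1, ELF4 against Gen1 WT (0.94) and BOA in Gen5 (-0.66) were no longer called, and 8 other clock genes were called in Gen5 memory against Gen5 WT in place of 13. Library size alone moved the median of all genes by -0.15, -0.19 and -0.17 in the memory comparisons, and the share higher among called genes was 28.6, 24.4 and 29.4% under it, against 47.6, 47.6 and 49.4% with TMM. Under it ZTL was -0.08, -0.11 and -0.02 in the memory comparisons and -0.01 between Gen5 and Gen1 memory, ELF3 was -0.14 in Gen5 memory against Gen5 WT, LUX was -0.03 and BOA -0.54 in Gen5 WT against Gen1 WT, where 1 member was then called, and FKF1 was -0.01 between Gen5 and Gen1 memory. The cause of the lower TMM factors was not tested.

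Leaving out 1 plant turned the sign of values near 0. LKP2 ranged from -0.04 to 0.03 in Gen1 memory against nonmemory, and LUX from -0.10 to 0.06 in Gen5 memory against Gen5 WT. In Gen1 nonmemory against Gen1 WT, GI ranged from -0.09 to 0.06 and ZTL from -0.04 to 0.00, and against Gen5 WT ELF4 ranged from -0.02 to 0.12. In Gen5 WT against Gen1 WT, LUX ranged from -0.06 to 0.11, FKF1 from -0.28 to 0.09, and 0 to 1 members were called. Between Gen5 and Gen1 memory, GI ranged from -0.03 to 0.12 and FKF1 from -0.12 to 0.21. In the difference of the generations FKF1 ranged from -0.08 to 0.31, LKP2 from -0.00 to 0.07, and 0 to 1 members were called. Whether the replicate numbers pair the plants was not settled: deviations of same-numbered plants correlated between -0.369 and 0.523 over 16999 genes. There was no comparison in which all 3 pairs passed 0.1, but this rule cannot exclude a pairing. With the number as a replicate block, 4 members were called in each memory comparison and 0 in the others, as without it.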
